A study of Mus musculus with 6 samples.

Results

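A set of 10 immediate-early genes was followed across the retinas of Lrp5-/- and wild type mice at postnatal day 8 (P8): Egr1, Egr2, Fos, Fosb, Jun, Junb, Ier2, Dusp1, Atf3 and Nr4a1. The members are the probes of an Illumina Mouse-WG6 BeadChip whose annotated gene symbol is one of these 10 names, and the names were proposed with results of these arrays known. They have 11 of the 45281 probes on the array, 2 for Junb and 1 for each other gene. A probe counted as expressed where its detection p-value, which compares it with negative control beads, was under 0.05 on at least 3 of 6 arrays. Which members have a level was thus chosen by measured detection values of the same arrays. Egr1, Egr2, Fos, Jun, Junb and Dusp1 passed (6 of 10 genes, among 20721 expressed probes, of which 17584 have 1 gene symbol and represent 11097 genes), while Fosb, Ier2, Atf3 and Nr4a1 did not.

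Total retinal RNA of 3 Lrp5-/- mice and 3 WT mice was measured, 1 mouse per array. The first group carries the strain label B6.129P2-Lrp5tm1Dgen/J and the genotype Lrp5 KO, and the WT mice are C57BL/6J. Both groups are P8 and no treatment is named for either, and nothing states that the mice were littermates. Lrp5 is a co-receptor of Wnt signalling, and the study asked which retinal genes differ when it is lost, at the age when the deeper vessel layers begin to form.

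Immediate-early genes are the first genes that a cell transcribes after a growth factor, synaptic activity, stress or injury, because the proteins that switch them on are already in the cell. Kinases of the MAPK family and calcium or cyclic AMP signals act on serum response factor with its ELK partners and on CREB, and the RNA rises and decays within minutes to hours. Handling of a tissue before its RNA is fixed is a well known trigger too. In the retina, Egr1 and Fos are widely used as marks of recently active neurons.

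The RNA was measured as a fluorescence signal per probe, normalized between arrays by the authors with a rank invariant algorithm and not background-subtracted. WT replicate 1 stood apart before normalization, with a mean signal of 199.97 and 18167 detected probes, against mean signals of 304 to 431 and 20286 to 21388 detected probes on the other 5 arrays. Normalization brought the mean signals to between 298 and 334, and WT replicate 1 still had the widest scatter about its group mean (residual SD of 0.17 on the log2 scale, against 0.10 to 0.13). The only expressed Lrp5 probe was higher in the group labelled as lacking Lrp5. Its signals were 99.2, 91.3 and 95.7 in retinas labelled Lrp5-/- and 46.8, 59.5 and 56.1 in WT retinas. The log2 fold change was 0.82 (adjusted p = 0.0127 by limma). The probe was detected on 3 arrays of retinas labelled Lrp5-/- and on 1 WT array. It thus passed the detection rule through the group where it is high, with WT signals near background, and its p-value is no independent test. Where this probe lies relative to the targeted exons was not determined, so the groups are named by their labels throughout. Cldn5, which encodes a tight junction protein of endothelium, differed most among the vessel markers, with a mean signal of 77.3 in retinas labelled Lrp5-/- and 693 in WT retinas. Rod markers (6 of 6 measured) and amacrine cell markers (6 of 6 measured) were expressed.

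Across all expressed probes, 24 of 20721 (0.116%) passed an adjusted p of 0.05 in limma with Benjamini-Hochberg adjustment, and 4.85% had an unadjusted p under 0.05. None of the 6 expressed members passed the adjusted threshold, and 2, Egr1 and Fos, had an unadjusted p under 0.05. The normalized signals of the groups did not overlap for 10.7% of all expressed probes, and for 4.96% they were lower in every retina labelled Lrp5-/- than in every WT retina. Among the members the groups did not overlap for 2 of 6, again Egr1 and Fos, both lower in retinas labelled Lrp5-/-. The other 4 expressed members overlapped between the groups. Over the 6 expressed members the median log2 fold change was 0.05, with 3 values below 0 and 3 above, beside 0.00 over all expressed probes. Its sign rested on Egr2, which was close to background. Over the 5 members detected on all 6 arrays, which leave out Egr2, the median was -0.03.

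**Figure D1:**
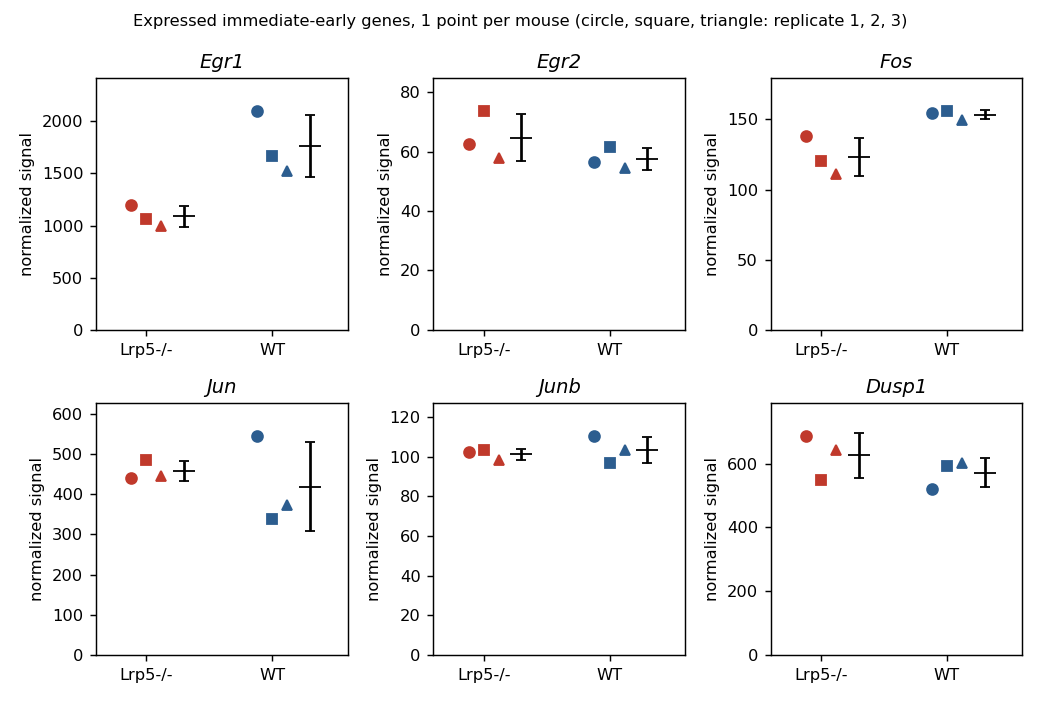
Normalized signal (vertical axis, linear, starting at 0) of the 6 expressed members on each array, with Lrp5-/- in red and WT in blue, and the mean and SD of 3 mice in black. Egr1 and Fos are lower in all 3 retinas labelled Lrp5-/- than in all 3 WT retinas, and the other 4 genes overlap.

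Egr1 (early growth response 1, probe ILMN_2662926) encodes a zinc finger transcription factor that binds GC-rich sites and carries fast signals on to slower target genes. Its normalized signal was 1198, 1064 and 999 in retinas labelled Lrp5-/- and 2095, 1668 and 1520 in WT retinas. Every retina labelled Lrp5-/- was below every WT retina, and the WT values were spread more widely. The means were 1087 ± 101 in retinas labelled Lrp5-/- and 1761 ± 299 in WT retinas (SD, n = 3 mice each). The log2 fold change of -0.69, 1.61-fold lower, had a standard error of 0.13 and a 95% interval from -0.96 to -0.41, and its adjusted p by limma was 0.0992 (unadjusted p = 0.000192), so the difference exceeded the scatter of the replicates and missed the threshold after adjustment over all probes. Egr1 was the 40th of 20721 probes by p. Leaving out WT replicate 1, the highest Egr1 value of all, brought the log2 fold change to -0.55. The adjusted p was then 0.0460, below the threshold, and calls over all expressed probes rose as well, from 24 to 85. With any other array left out, the adjusted p of Egr1 lay between 0.133 and 0.572.

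How far apart the Egr1 groups lay depended on the normalization. In the non-normalized table the signals were 1255, 1101 and 985 in retinas labelled Lrp5-/- and 1151, 2507 and 1470 in WT retinas. The non-normalized groups overlapped through WT replicate 1, the array of low overall signal, and WT replicate 2, the brightest array, had the highest value. Quantile normalization, neqc and scaling to a common median over expressed probes all kept the groups apart.

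**Figure D2:**
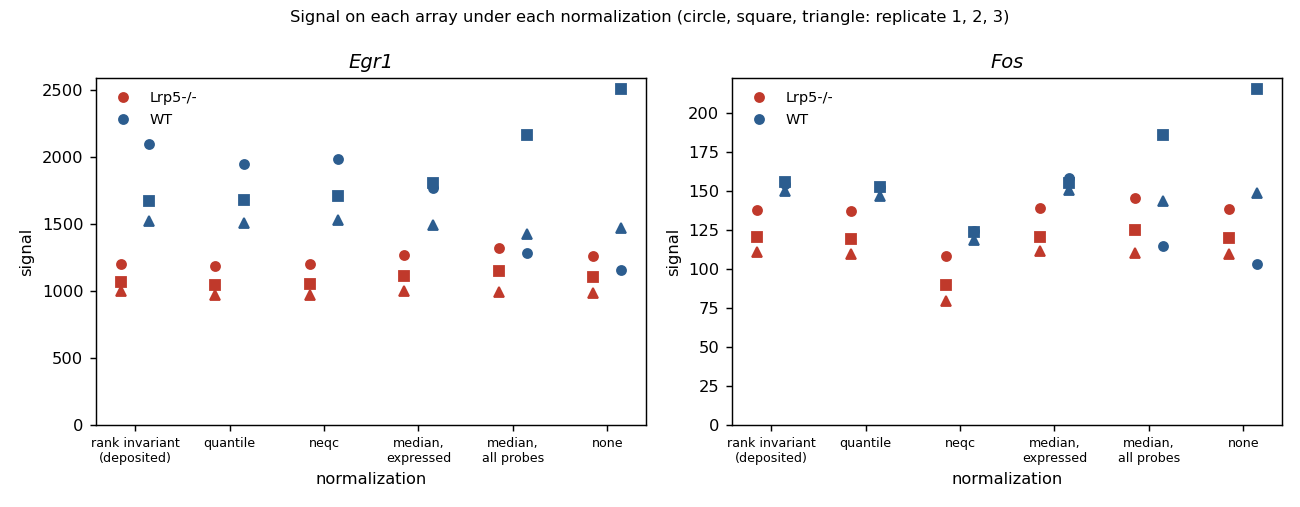
Signal (vertical axis, linear) of Egr1 and Fos on each array under 6 normalizations along the horizontal axis, Lrp5-/- in red on the left of each pair and WT in blue on the right. The groups are apart in the 4 settings on the left and overlap with scaling over all probes and with no normalization, where WT replicate 1 (circle) lies at 1151 for Egr1 and at 103 for Fos.

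Egr2 (probe ILMN_2623983), a sister factor known for its role in Schwann cells and hindbrain, was close to background. The signal was 62.6, 73.6 and 58.0 in retinas labelled Lrp5-/- and 56.6, 61.5 and 54.5 in WT retinas, where the median signal of undetected probes on an array was 46.9 to 49.2. Its detection p-values passed on 2 arrays of retinas labelled Lrp5-/- and on 1 WT array, which put it just inside the rule. The log2 fold change was 0.16 (95% interval -0.07 to 0.40, adjusted p = 0.987 by limma). The groups overlapped and the sign was opposite to that of Egr1. Without Lrp5-/- replicate 2, the highest value, the log2 fold change was 0.07.

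Fos (probe ILMN_2750515) encodes the partner of JUN proteins in the transcription factor AP-1. Its normalized signal was 138.0, 120.3 and 111.0 in retinas labelled Lrp5-/- and 154.7, 155.8 and 149.8 in WT retinas. The WT retinas lay close together and all above the retinas labelled Lrp5-/-. The means were 123 ± 13.7 in retinas labelled Lrp5-/- and 153 ± 3.19 in WT retinas (SD, n = 3 each), with the background left in the signal. The fitted log2 difference was -0.32, 1.25-fold lower, with a standard error of 0.10 and a 95% interval from -0.54 to -0.10. The unadjusted p was 0.0077 and the adjusted p 0.767 by limma, so Fos did not pass. Without normalization the Fos groups also overlapped, at 138.4, 119.6 and 109.8 in retinas labelled Lrp5-/- and 103.0, 215.6 and 148.6 in WT retinas.

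Of the other AP-1 members, Fosb, detected on no array, lay between 46.9 and 53.1 in retinas labelled Lrp5-/- and between 40.5 and 49.7 in WT retinas. These values are in the range of undetected probes, and no fold is given. Jun (ILMN_2646625), the core AP-1 subunit, had signals of 440.6, 486.1 and 444.9 in retinas labelled Lrp5-/- and 544.2, 338.1 and 374.1 in WT retinas. The WT retinas held both the highest and the lowest Jun value and enclosed all 3 of the others. Means were 457 ± 25.1 in retinas labelled Lrp5-/- and 419 ± 110 in WT retinas (SD, n = 3 each), with a log2 fold change of 0.16 (95% interval -0.18 to 0.49, adjusted p = 0.987). Without WT replicate 1 the Jun value was 0.36 with an adjusted p of 0.197, and without WT replicate 2 it was 0.02, so its size rested on single WT mice.

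Junb (ILMN_1220034), a JUN relative that restrains JUN in many cells, was the steadiest member. Its signal was 102.5, 103.3 and 98.2 in retinas labelled Lrp5-/- and 110.4, 97.0 and 103.2 in WT retinas. The groups overlapped, with a log2 fold change of -0.03 (95% interval -0.23 to 0.17, adjusted p = 0.993 by limma). A second Junb probe, ILMN_1254833, was undetected on every array. Atf3 (ILMN_2619408), a stress-induced factor of the ATF/CREB family and a well known injury marker of retinal ganglion cells, had 62.0, 54.1 and 54.9 in retinas labelled Lrp5-/- and 46.9, 52.2 and 60.4 in WT retinas. It was detected only on the array of Lrp5-/- replicate 1, 2 arrays short of the rule though the nearest to it of the members left out, and the groups overlapped.

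Nr4a1, an orphan nuclear receptor, and Ier2, a nuclear protein of the early serum response, were undetected on all arrays. Nr4a1 signals lay between 43.1 and 46.6 in retinas labelled Lrp5-/- and between 43.6 and 54.1 in WT retinas. Ier2 signals lay between 51.0 and 52.8 in retinas labelled Lrp5-/- and between 48.3 and 59.0 in WT retinas. A probe at background gives an upper bound and not an absence, and no order between the groups can be read from these values.

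Dusp1 (ILMN_2622983) encodes a phosphatase that switches MAP kinases off again, the negative feedback arm of the response. Its signal was 686.5, 549.4 and 642.9 in retinas labelled Lrp5-/- and 521.4, 593.8 and 602.6 in WT retinas. Means were 626 ± 70.0 in retinas labelled Lrp5-/- and 573 ± 44.6 in WT retinas (SD, n = 3 each). The groups overlapped, the log2 fold change was 0.13 (95% interval -0.11 to 0.36, adjusted p = 0.987 by limma), and the sign was opposite to that of Egr1 and Fos. Without Lrp5-/- replicate 1 it was 0.06, without WT replicate 1 also 0.06, and without Lrp5-/- replicate 2 it was 0.22.

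The upstream sequences of 3 members are printed, chosen by their values. Fos was lower in every retina labelled Lrp5-/- without passing the threshold, and Junb and Dusp1 overlapped between the groups. All 3 windows hold TGACG, the core of the cyclic AMP response element, as do windows of Egr2, Fosb, Nr4a1 and Atf3. Any link between TGACG and the group values was not tested. The printed sequences are the 250 bases before the RefSeq start on the strand of the gene, from the build GRCm38.p6. They are in lower case, with TGACG in capitals on either strand (it reads CGTCA on the other strand).
Fos, plus strand, chr12:85473640-85473889: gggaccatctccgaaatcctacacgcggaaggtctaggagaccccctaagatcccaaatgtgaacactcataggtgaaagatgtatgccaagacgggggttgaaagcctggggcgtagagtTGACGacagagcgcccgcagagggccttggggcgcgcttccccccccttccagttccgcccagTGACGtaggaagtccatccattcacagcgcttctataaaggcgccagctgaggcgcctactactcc
Junb, minus strand, chr8:84978749-84978998: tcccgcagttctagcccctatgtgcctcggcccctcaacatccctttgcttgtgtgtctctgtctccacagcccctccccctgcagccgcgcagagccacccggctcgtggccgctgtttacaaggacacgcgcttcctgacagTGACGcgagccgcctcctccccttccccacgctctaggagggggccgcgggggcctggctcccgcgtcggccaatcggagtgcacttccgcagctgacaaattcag
Dusp1, minus strand, chr17:26508473-26508722: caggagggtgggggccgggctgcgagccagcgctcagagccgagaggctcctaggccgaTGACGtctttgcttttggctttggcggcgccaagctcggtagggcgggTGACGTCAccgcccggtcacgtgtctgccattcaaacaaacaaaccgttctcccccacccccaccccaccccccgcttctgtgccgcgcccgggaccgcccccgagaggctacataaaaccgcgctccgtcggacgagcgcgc
The Fos window holds TGACG starting 129 and 66 bases before the start and a TATAAA box 33 bases before it. The Junb window has TGACG 106 bases before the start. In the Dusp1 window TGACG starts 191 and 143 bases before the start, the second of these inside the full palindrome TGACGTCA, whose other strand holds the third match.

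Of 10 members, 8 have an entry in the promoter table (12 entries in all), and Egr1 and Ier2 have none. TGACG was found upstream of 7 of these 8 members, all but Jun, and in 17.8% of 32851 mouse windows of the same length, both strands searched. The full TGACGTCA, which contains TGACG, was found upstream of Dusp1 alone among the members and in 1.55% of all windows. A CArG box, the core of the serum response element, was found within the window for Egr2 only, in 4 of its 5 entries, and in 1.47% of all windows. The EGR site GCGNGGGCG stood upstream of Fosb and Nr4a1 and in 4.70% of all windows, TATAAA upstream of Fos and in 12.4%, and the AP-1 site TGANTCA upstream of no member and in 6.75%. These matches describe letters in a short window and show no site in use.

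Whether the members moved together from mouse to mouse was read from each gene's log2 signal minus its own mean over the 6 arrays. Egr1 and Fos followed each other, with the lowest value of both in Lrp5-/- replicate 3 and the same order of the 3 retinas labelled Lrp5-/-. Their order differed among the WT retinas, where replicate 1 was the highest for Egr1 and replicate 2 for Fos. Pearson's r between Egr1 and Fos was 0.91 over 6 arrays, given as a description because it includes the difference between the groups. Jun and Junb came next (r = 0.74), with the highest value of both in WT replicate 1 and the lowest in WT replicate 2. Dusp1 had its lowest value on WT replicate 1, where Egr2 was also below its mean and the other 4 members were above theirs.

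Over the 15 pairs of expressed members r ranged from -0.59 (Junb with Dusp1) to 0.91 and averaged -0.04, with 5 pairs above 0 and 10 below. Averaged over members, the centred log2 signal was 0.01, -0.04 and -0.12 in retinas labelled Lrp5-/- and 0.15, 0.01 and -0.01 in WT retinas. WT replicate 1 was the highest array for 3 of 6 members (Egr1, Jun and Junb), beside 29.2% of all expressed probes, and the lowest for Dusp1, beside 26.3%. With the non-normalized signals the mean r was 0.71, a value that carries the brightness each array gives to every probe. No array thus held all members high or all members low after normalization.

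**Figure D3:**
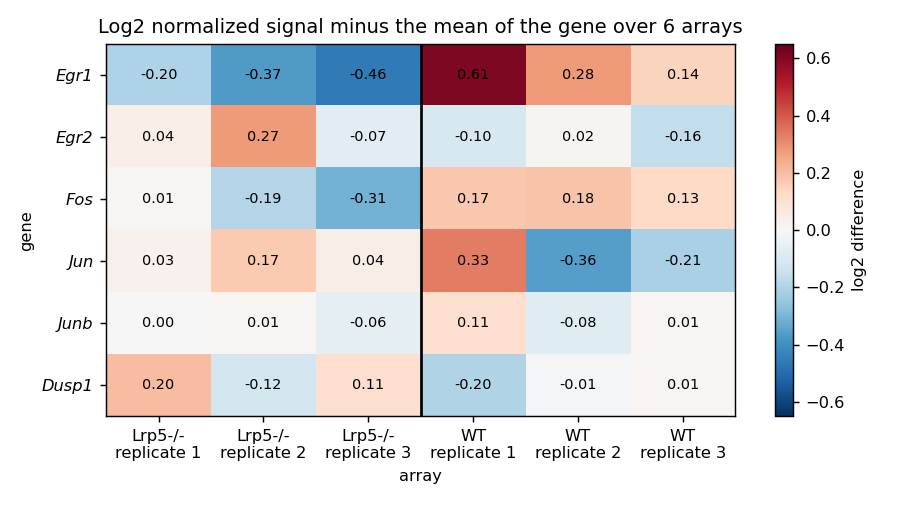
Log2 normalized signal of each expressed member (rows) on each array (columns, Lrp5-/- on the left of the line), minus the mean of that gene over the 6 arrays, in log2 units from blue (below its mean) to red (above). Egr1 is below its mean on every Lrp5-/- array (lowest -0.46) and above it on every WT array (highest 0.61), while Jun and Dusp1 have opposite signs on WT replicate 1.

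Scatter between mice of 1 group differed among the members. The residual SD was 0.14 on the log2 scale for the median expressed member and 0.12 for the median of all expressed probes. Jun had the widest scatter, with only 4.48% of all expressed probes wider, followed by Egr1 with 14.2% wider. Junb was among the steadier probes, with 85.8% wider, and Fos lay near the middle with 54.8% wider.

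The rule for likeness took the 8 expressed probes that correlated best over the 6 arrays with the mean profile of the members. They were Mphosph9 (r = 0.993), Strbp, Inpp5f, Thbs3, Ttll4, Cacna1h, Dbn1 and Acadvl (r = 0.979). Strbp, Inpp5f, Thbs3 and Ttll4 were close to background, with group means from 59.5 to 67.9. The 8 were picked as the best matches among many probes over 6 arrays. They match the mean of members whose own r averaged -0.04. Log2 fold changes of the 8 probes lay between -0.23 and -0.08 and none passed the test. Against Egr1 alone, a comparison chosen after the values were seen, the most similar probe was that of Col18a1 (r = 0.993), the collagen chain that gives rise to endostatin. Its signal was 804.9, 680.3 and 688.0 in retinas labelled Lrp5-/- and 1576, 1219 and 1160 in WT retinas (log2 fold change -0.85, adjusted p = 0.0314 by limma). Both genes had their highest value in WT replicate 1 and did not overlap between the groups. The probe was picked by an r that includes the difference between the groups, so these shared traits are no separate result. Next in r came Abca2 (r = 0.985) and Pcyt2 (r = 0.984), with smaller log2 fold changes of -0.13 and -0.23. Neither passed the threshold (adjusted p = 0.987 and 0.940 by limma).

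Further immediate-early genes were listed from general knowledge, 42 with a probe and 26 expressed. The list was drawn up with earlier results of these arrays known, so its counts are a description. None passed the adjusted threshold, 16 had a value below 0 and 10 above, and the median log2 fold change was -0.05. The groups did not overlap with lower signals in retinas labelled Lrp5-/- for 5 of 26 (19.2%), beside 4.96% of all expressed probes. They did not overlap with higher signals for 2. Counting both directions, 10.7% of all expressed probes had groups that did not overlap. An unadjusted p under 0.05 was reached by 6 of 26, beside 4.85% of all. The 5 lower genes were Ccn2, Trib1, Egr3, Klf2 and Plk2, and the 2 higher ones Nr4a2 and Ier3.

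Ccn2, a secreted matricellular protein that growth factors and mechanical strain induce, had 473.0, 476.3 and 483.2 in retinas labelled Lrp5-/- and 599.0, 822.3 and 881.5 in WT retinas. The 3 retinas labelled Lrp5-/- were nearly equal and all below the WT retinas. The fitted log2 difference was -0.67 with a standard error of 0.13 (adjusted p = 0.141 by limma). Without WT replicate 1 it was -0.83 with an adjusted p of 0.0014. Leaving out any other array gave values from -0.67 to -0.56, with adjusted p from 0.506 to 0.624. A second Ccn2 probe gave -0.49 (adjusted p = 0.816).

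Egr3, a close relative of Egr1 and Egr2, had 70.3, 61.9 and 62.2 in retinas labelled Lrp5-/- and 83.6, 77.6 and 76.4 in WT retinas (log2 fold change -0.29, adjusted p = 0.816). Its second probe gave -0.09. Klf2, a transcription factor that blood flow induces in endothelium, had 63.8, 65.2 and 63.2 in retinas labelled Lrp5-/- and 77.9, 80.0 and 76.4 in WT retinas (log2 fold change -0.29, adjusted p = 0.690). Egr3 and Klf2 were detected on all 6 arrays, at signals close to background, and their size depended on how background was treated. With background correction by neqc they were at -0.52 and -0.50 (adjusted p = 0.463 and 0.224 by limma). Trib1, a pseudokinase that recruits a ubiquitin ligase, gave -0.43 (adjusted p = 0.690), and its second probe 0.03. Nr4a2, the relative of Nr4a1, ran the other way at 0.27 (adjusted p = 0.855), with means of 88.7 ± 1.46 in retinas labelled Lrp5-/- and 74.0 ± 5.70 in WT retinas (SD, n = 3 each).

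**Figure D4:**
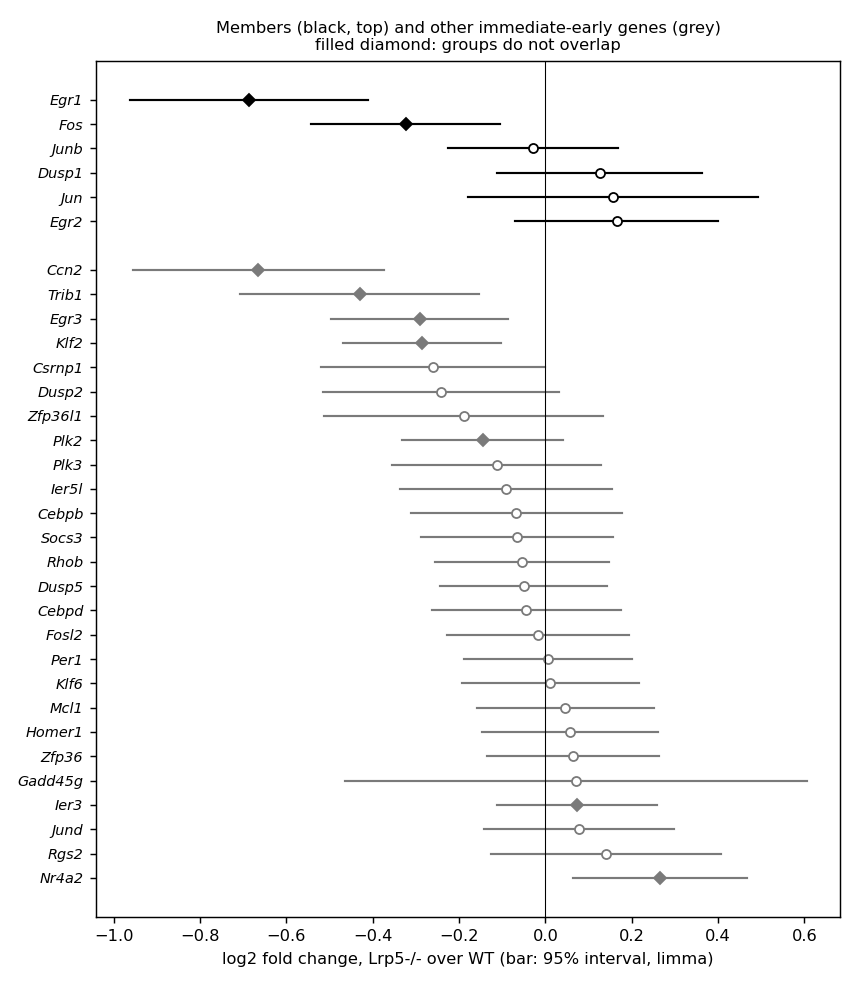
Log2 fold change of normalized signal, Lrp5-/- over WT (horizontal axis), with 95% intervals from limma, for the 6 expressed members (black) and 26 other expressed immediate-early genes (grey), 1 probe a gene, filled diamonds where the groups do not overlap. Egr1 (-0.69) and Ccn2 (-0.67) lie farthest to the left and Nr4a2 (0.27) farthest to the right, and no gene passed the adjusted threshold.

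Genes upstream of the response and in its feedback were counted the same way. Of 10 expressed feedback inhibitors (the dual specificity phosphatases Dusp4, Dusp6, Dusp7, Dusp8, Dusp10 and Dusp16, the RAS-ERK inhibitors Spry4 and Spred1, the EGR repressor Nab1 and the EGF receptor inhibitor Errfi1) none passed, and the median log2 fold change was -0.02. None had groups that did not overlap, beside 10.7% of all expressed probes. Dusp16 (0.27), Dusp8 (0.17), Dusp7 (-0.15) and Dusp6 (-0.16) had the smallest p-values, each with an adjusted p of 0.987. The other Dusp8 probe gave -0.02. Other Dusp16 probes gave 0.24, 0.23 and -0.03, and other Dusp6 probes -0.19 and 0.09. The Dusp16 probe at -0.03 and the Dusp6 probe at 0.09 were close to background. With single arrays left out the values first given ranged from 0.15 to 0.43 for Dusp16, from 0.09 to 0.29 for Dusp8, from -0.26 to -0.01 for Dusp7 and from -0.30 to -0.07 for Dusp6. Of 14 expressed upstream kinases and transcription factors none passed either, with a median of 0.01. Srf, which encodes serum response factor, gave -0.11, Elk4, its partner, -0.12 and Creb1 -0.11 (adjusted p = 0.987 each), and the CREB co-activator Crtc2 gave 0.34 (adjusted p = 0.931) at signals close to background. With single arrays left out, Srf ranged from -0.17 to -0.07 and Elk4 from -0.17 to -0.04.

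All 12 listed genes of heat shock and protein folding stress, which tissue handling can also induce, were expressed and none passed. Their median log2 fold change was -0.07, with 9 below 0 and 3 above. The groups did not overlap with lower signals in retinas labelled Lrp5-/- for 3 of 12 (25.0%), beside 4.96% of all expressed probes. They did not overlap with higher signals for 1, Hspb1, where 10.7% of all expressed probes did not overlap counting both directions. Hspb1, a small heat shock protein, gave 0.34 (adjusted p = 0.894), and Herpud1, a protein of the endoplasmic reticulum stress response, -0.27 (adjusted p = 0.941). The inducible chaperones Hspa1a and Hspa1b gave -0.20 and 0.18 (adjusted p = 0.987 each by limma). Hspa1a was detected on all 6 arrays and its groups did not overlap. Hspa1b was detected on 4 arrays, close to background (means of 67.5 in retinas labelled Lrp5-/- and 59.5 in WT retinas), and its groups overlapped.

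In sum, markers of blood vessel endothelium were lower in retinas labelled Lrp5-/-, but the genes differed widely. Cldn5 fell most (means of 77.3 and 693), Kdr was at -0.10, and Emcn ran the other way at 0.25. These are the endothelium markers as a list. Of 11 with a probe 10 were expressed, and their summed signal was 1466 to 1663 in retinas labelled Lrp5-/- and 2660 to 3095 in WT retinas, with a median log2 fold change of -0.47 and 1 gene past the threshold, Cldn5 (log2 fold change -3.16). Their part in the lower Egr1, Fos, Ccn2, Egr3 and Klf2 signals was not tested, and in whole retina fewer cells of a type and less RNA per cell cannot be told apart. Summed signals of the other cell types overlapped between the groups: rod markers were at 63457 to 65736 in retinas labelled Lrp5-/- and 61568 to 76567 in WT retinas, and pigment epithelium markers, of which Rpe65, Tyr, Mlana, Slc45a2 and Lrat were undetected, at 1481 to 3193 in retinas labelled Lrp5-/- and 1425 to 3929 in WT retinas. Lens markers, with Bfsp2, Mip and Lim2 undetected, were at 242 to 725 in retinas labelled Lrp5-/- and 253 to 914 in WT retinas.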

How the data were processed

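Total RNA of 6 retina samples, 3 Lrp5-/- and 3 WT, was hybridized by the authors as biotin-labelled cRNA, 1 mouse per array. The deposited signal intensity comes non-normalized and normalized by the authors in Bead Studio with the rank invariant algorithm. A deposited detection p-value for every probe is the same in both tables. Signals were floored at 16 (1 value) and log2 was taken. Expressed probes (20721) were fitted with limma 3.58.1 in R 4.3.3, two-sided, with Benjamini-Hochberg adjustment over all of them and no block, and the fit was tested on simulated data. The methods' SAM was not run, because its false discovery rate rests on permuted labels. The expressed probe of highest mean log2 signal stands for a gene. Symbols came from the platform annotation (34885 probes with 1 symbol, 18 with several, 10378 unnamed here). Same-numbered arrays of the groups did not deviate together (correlations -0.21, -0.15 and -0.28). Precision is limited by signal over background and by having 3 arrays a group. The members and lists were chosen with earlier results of these data known. Named are all members, up to 4 genes of each list by p, and the 8 probes most like the members' mean profile. Ier3, Plk2, Nr4a2 and the comparison with Egr1 alone were added after their values were seen.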

Additional observations from a re-analysis of the deposited data

How the results depend on the processing

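The log2 fold changes of Egr1 and Fos stayed below 0 under all 17 alternatives. They lay between -0.79 and -0.46 for Egr1 and between -0.42 and -0.21 for Fos. Only another normalization could have turned these signs. The normalized groups did not overlap, so leaving out or weighting arrays or adding 50 could not. Changing the detection filter, the intensity trend or the replicate block left both estimates as they were. Egr1 passed the adjusted threshold in 2 of them, with array weights (-0.60, adjusted p = 0.0149) and without WT replicate 1, and its adjusted p ranged from 0.0149 to 1.00; Fos passed in none. The members past the threshold, 0 in the fit reported, numbered 1 with array weights and 0 to 1 when single arrays were left out. The calls over all probes, 24 in that fit, were 10 with median scaling over expressed probes, 2 with no normalization, 0 with scaling to the median of all probes (a setting chosen after seeing the data), 11 with 50 added, 98 with array weights, 13 with the replicate number as a block and 10 to 85 with single arrays left out, 85 without WT replicate 1. With the replicate block the adjusted p of Egr1 was 0.0732 and no member passed; same-numbered mice share only a number. Scaling to the median of all probes, most of them undetected, moved the median of all expressed probes to 0.12, and relative to that median Egr1 was at -0.59 and Fos at -0.33. Dividing an array by a constant shifts all its probes alike. These relative values were therefore the same with no normalization and are no separate check. Under scaling over all probes the signs of Junb (0.064), Dusp7 (0.072), Dusp6 (0.042), Creb1 (0.012), Elk4 (0.048) and Srf (0.10) turned, Srf also with no normalization (0.014), and the median over members was 0.11. That median was -0.029 over probes detected on all 6 arrays and -0.029 to 0.049 with single arrays left out, where Junb ranged from -0.075 to 0.018. The mean r between members, -0.04, was 0.0015 with median scaling, 0.71 with no normalization, 0.47 with scaling over all probes and -0.095 to 0.019 with single arrays left out. A slide block was not run, since the tables name no slide, and no member has another expressed probe to put in its place.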
